A study of Xenopus tropicalis with 12 samples.

Results

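The 3622 regions described here were bound by thyroid hormone receptor (TR) in stage 54 hind limb of wild-type *Xenopus tropicalis* tadpoles without T3 treatment and in none of the other 3 conditions of the study. They were chosen by their peaks. Overlapping peaks of the 12 libraries (1 bp or more in common) were joined into 189159 regions. A condition was taken to bind a region when 2 or 3 of its libraries had a peak there, and the 3622 regions are those that untreated wild type alone bound. They made up 1.91% of all regions and 22.8% of the 15853 regions bound in untreated wild type (8.38% of all regions). In the other conditions, 6.53% of all regions were bound in TRα (-/-) with T3, 3.96% in TRα (-/-) without T3 and 7.15% in wild type with T3. The remaining 12231 regions bound in untreated wild type were also bound in at least 1 other condition, and they are called shared regions below.

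Chromatin came from pooled hind limbs of several tadpoles per condition. The sample labels give the wild-type and TRα (-/-) tadpoles the same parents, whereas the study's methods say that wild-type animals were purchased and TRα (-/-) animals bred from heterozygous frogs. The conditions were wild type without T3, TRα (-/-) with 10 nM T3 for 18 h, TRα (-/-) without T3, and wild type with 10 nM T3 for 18 h. Each was precipitated with an antibody against TR and sequenced as 3 libraries. The series' design text calls them technical replicates of 1 merged sample, which it names as RNA although chromatin was assayed. Read that way, their spread does not cover how groups of tadpoles vary. The TRα (-/-) tadpoles carry no functional TRα and still have the gene for TRβ.

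TR is a nuclear receptor that sits on DNA as a heterodimer with RXR, at thyroid hormone response elements. Without hormone it recruits corepressor complexes and holds target genes down, and with T3 it exchanges them for coactivators and the same genes are induced. In the hind limb before metamorphosis, TRα is the more abundant receptor and little T3 circulates. The comparisons below ask what the regions recorded there alone look like in the other libraries, given that untreated wild type was also sequenced deepest. Condition and depth cannot be told apart in this design. The genes at these positions and the DNA sequence of the regions were not analysed here, because no v9.1 genome or annotation was used.

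Depth set untreated wild type apart from the rest. Its 3 libraries held 3080104, 4188012 and 6119057 fragments, against 940383, 1832197 and 2851627 in TRα (-/-) with T3, 1597734, 834029 and 3000220 in TRα (-/-) without T3, and 1055706, 1825401 and 2307377 in wild type with T3 (replicates 1, 2 and 3). Each library of untreated wild type was deeper than each of the other 9. The mean was 4462391 ± 1537944 fragments (SD, n = 3) in untreated wild type and 1804964 ± 796262 (SD, n = 9) in the others (exact two-sided permutation test, p = 0.00455, the smallest p that 3 against 9 libraries allow). Here n counts technical libraries of 1 sample per condition, so p covers the spread between libraries only, and that these libraries were the deepest was known when the test was chosen. Same-numbered libraries mostly deviated together in depth, although replicate 2 rather than replicate 1 was the shallowest in TRα (-/-) without T3. This pairing was read from the same fragment counts. When replicate numbers were kept together as blocks, the difference had p = 0.25 (exact sign-flip test), the lowest value possible with 3 pairs. Against each single condition the exact permutation test gave p = 0.1, the smallest for 3 against 3. Untreated wild type did not have the most peaks, with 25744 ± 3328 per library (SD, n = 3), against 30742 ± 6768 in TRα (-/-) with T3, 14853 ± 8883 in TRα (-/-) without T3 and 38480 ± 4907 in wild type with T3. Its fragments had typical sizes of 152 to 176 bp, against 180 to 224 bp, 177 to 200 bp and 154 to 191 bp in the same order of conditions. The part of fragment size in the results was not tested.

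Most of the 3622 regions stood close to the limits of the rule. A peak in 2 of the 3 libraries of untreated wild type carried 2818 of them (77.8%), and a peak in all 3 carried 804 (22.2%). Among shared regions, 8691 of 12231 had a peak in all 3. Outside untreated wild type, 806 of the 3622 regions (22.3%) had a peak in none of the 9 other libraries, 1290 (35.6%) in 1, 1070 (29.5%) in 2 and 456 (12.6%) in 3, the most the rule allows. A peak in 1 library of wild type with T3 was present in 1904 regions (52.6%), in 1 library of TRα (-/-) with T3 in 1684 (46.5%), and in 1 library of TRα (-/-) without T3 in 1210 (33.4%). No peak in any of the 6 TRα (-/-) libraries was called in 1414 regions (39.0%), and no peak in the 3 libraries of wild type with T3 in 1718 (47.4%). The rule itself allows at most 1 peak in each of these conditions, so it sets part of these shares. The same shares over all regions were not counted, and no dependence on TRα or T3 can be read from them. On the other side of the untreated wild-type limit, 30621 regions bound in no condition had a peak in 1 of its libraries. Just outside the rule also lay 2600 regions that were bound in untreated wild type and, through exactly 2 libraries, in 1 other condition, which was wild type with T3 in 1264 cases, TRα (-/-) with T3 in 978 and TRα (-/-) without T3 in 358.

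The share of the 3622 regions that had a peak in a given library rose with depth within each of the other conditions. It was 70.8%, 70.8% and 80.6% in replicates 1, 2 and 3 of untreated wild type, which the rule uses. In TRα (-/-) with T3 it was 10.1% in replicate 1, the shallowest, 14.5% in replicate 2 and 21.9% in replicate 3, the deepest. In TRα (-/-) without T3 it was 10.0%, 1.19% and 22.2% in replicates 1, 2 and 3, and replicate 2 was the shallowest of the 12 libraries with 834029 fragments. In wild type with T3 it was 12.1%, 15.2% and 25.2%. Of all regions, 20.0%, 14.7% and 13.2% had a peak in replicates 1, 2 and 3 of TRα (-/-) with T3. The shares of all regions were 9.83%, 2.38% and 10.7% in TRα (-/-) without T3 and 22.1%, 17.1% and 20.8% in wild type with T3. The 3622 regions were thus below the share of all regions in some of the shallower libraries. In each of the 3 conditions the deepest library had the highest share and the shallowest the lowest. Shared regions had the same order within each condition at higher levels, with 24.6 to 83.1% in the 9 other libraries. The rule sets part of these levels. It allows the 3622 regions a peak in at most 1 library of each other condition, while shared regions need at least 2 libraries of 1 other condition.

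**Figure D1:**
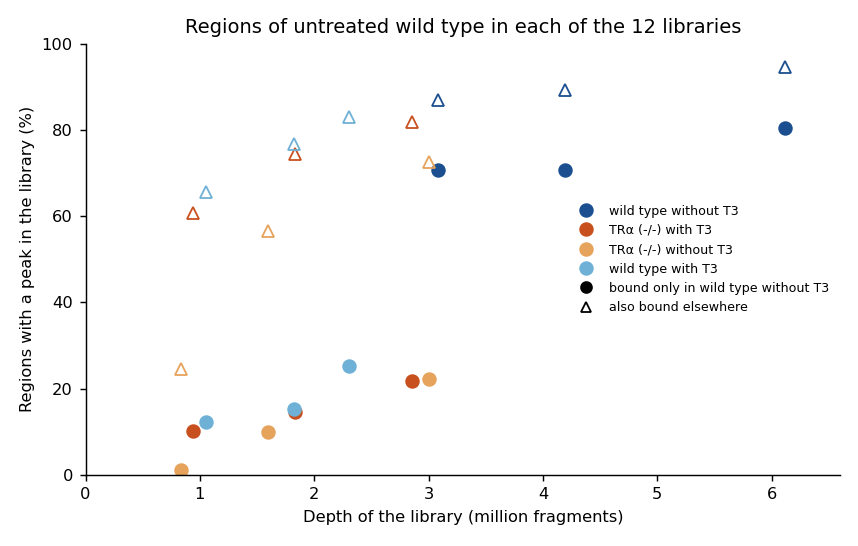
Share of regions with a peak (%) in each of the 12 libraries against the depth of the library in fragments. Filled circles are the 3622 regions bound only in wild type without T3 and open triangles the 12231 shared regions, coloured by condition; among the 9 other libraries the circles lie between 1.19 and 25.2% and are highest in the deepest library of each condition.

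The regions were weaker than shared regions in the libraries that defined them. Their median summit pileup, the number of fragments stacked at the summit, was 5, 7 and 9 fragments in replicates 1, 2 and 3 of untreated wild type, against 9, 11 and 15 fragments for shared regions in the same libraries. Over all peaks of these 3 lists the median was 5, 7 and 10 fragments, close to that of the 3622 regions, and the lowest pileup was 3, 4 and 5 fragments. The median fold enrichment over the local background was 4.32, 4.52 and 4.68 for the 3622 regions and 6.06, 6.13 and 6.77 for shared regions. By q value percentile, where 100 is the strongest peak of a list, the medians were 52.5, 47.4 and 42.9 against 79.8, 74.6 and 73.6. The 2600 regions just outside the rule had median pileups of 6, 7 and 10 fragments, against 5, 7 and 9 just inside. Values of untreated wild type chose the regions, so these medians describe the choice and were not tested.

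Regions bound only in untreated wild type were a smaller share of its stronger binding. The 15853 regions of untreated wild type were ranked by the median per-million pileup (summit fragments scaled to library size) and divided into deciles. The median was taken over its libraries with a peak in the region. In the weakest decile (median per-million pileup 1.19), 54.2% were bound only in untreated wild type, with a 95% Wilson interval of 51.7 to 56.6% that covers counting error only. The share was 30.9% in the 4th decile, 16.2% in the 6th decile, 7.70% in the 8th decile and 1.83% in the strongest decile (median per-million pileup 9.09, interval 1.28 to 2.61%). Each decile had a lower share than the one before it. The ranking used the same peaks of untreated wild type that chose the regions, so the decline describes the choice and was not tested. In the weakest decile, 27.2% of the regions were bound in TRα (-/-) with T3, 11.8% in TRα (-/-) without T3 and 28.3% in wild type with T3, while in the strongest decile the shares were 95.5%, 89.5% and 96.6%.

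**Figure D2:**
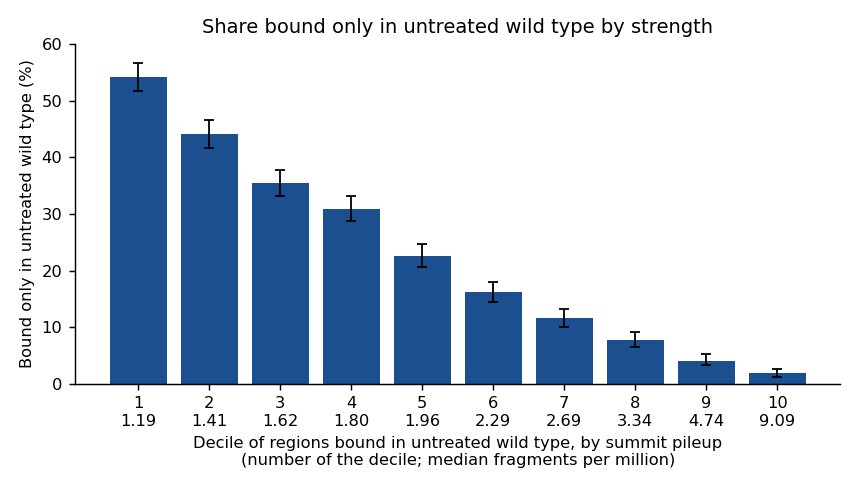
Share of regions bound only in wild type without T3 (%, bars, with 95% Wilson intervals) in each decile of the 15853 regions bound in untreated wild type, ordered by median per-million summit pileup. The bars decline from 54.2% in decile 1 to 1.83% in decile 10.

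How many of the regions could have been seen at the depth of the other libraries varied with the measure. The pileup of each region was its median per-million pileup over the untreated wild-type libraries with a peak there, so libraries without a peak did not lower it. It was scaled by fragments to the depth of each other library and set beside the median summit pileup of that library's own peaks. In 391 of the 3622 regions (10.8%) the scaled pileup reached that median in at least 2 libraries of every other condition, against 5921 of 12231 shared regions (48.4%). The scaled values came from the same peaks that chose the regions, so this difference describes the choice and was not tested. Of all 6312 regions of untreated wild type that reached the median, 6.19% were bound only there, against 22.8% of all its regions. The median is not a limit of detection, because in most of these lists the lowest called pileup was lower. With the lowest pileup of each list in place of the median, 1063 of the 3622 regions (29.3%) and 8722 shared regions (71.3%) reached it. This scaling takes a fragment to be worth the same in every library. At the 1668 regions with a peak in all 12 libraries, the pileup per fragment relative to untreated wild type was 1.49 to 1.52 in TRα (-/-) with T3, 1.14 to 1.22 in TRα (-/-) without T3 and 1.33 to 1.37 in wild type with T3. Scaled by these regions instead, 623 of the 3622 regions (17.2%) reached the median and 1588 (43.8%) the lowest pileup, a combination added after seeing the data. In all 4 combinations the count equalled that of TRα (-/-) without T3 taken alone. In the last one, 3436 of the 3622 regions reached the lowest pileup in TRα (-/-) with T3 and 3166 in wild type with T3.

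Replicates left out of the choice were read next. The reading was not fully independent, because peaks of all 12 libraries had joined the regions and the replicates are technical. In 3 rounds, 2 replicate numbers chose the regions, with a peak in both libraries of untreated wild type and not in both libraries of any other condition, and the third number was read. With replicate 1 held out, 3170 regions were chosen and 51.4% of them had a peak in the held-out library of untreated wild type, against 27.5% in TRα (-/-) with T3, 23.9% in TRα (-/-) without T3 and 32.8% in wild type with T3. With replicate 2 held out, the shares over 3314 regions were 55.1%, against 37.7%, 5.13% and 41.2% in the same order of conditions. With replicate 3 held out, they were 70.4% over 3661 regions, against 54.4%, 44.2% and 56.5%. Untreated wild type was highest in each round, and its held-out library was also the deepest in each round. The order of conditions was the same for all regions with a peak in both choosing libraries of untreated wild type, without any exclusion. These had a peak in its held-out library in 78.3%, 80.1% and 87.4% of cases (replicates 1, 2 and 3 held out). In wild type with T3 the shares were 60.4%, 70.2% and 79.1%. The chosen regions thus recurred less often than untreated wild-type binding in general. As a background, 12.1 to 15.1% of all 189159 regions had a peak in a given library of untreated wild type, 13.2 to 20.0% in TRα (-/-) with T3, 2.38 to 10.7% in TRα (-/-) without T3 and 17.1 to 22.1% in wild type with T3. The 3 rounds share libraries and received no test.

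**Figure D3:**
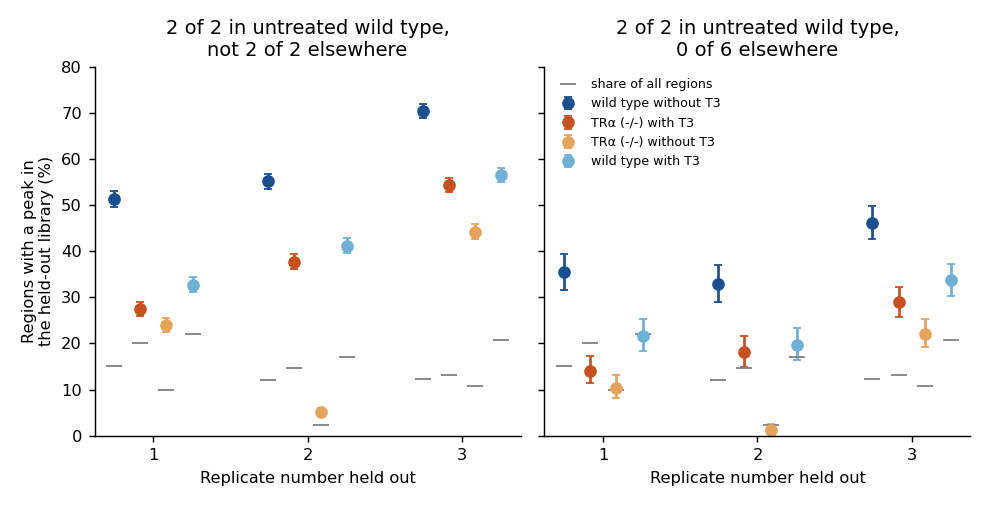
Regions with a peak in the held-out library (%, with 95% Wilson intervals) for each replicate number held out, by condition; the left panel has regions with both remaining libraries of untreated wild type and not both of another condition, the right panel those with none of the 6 remaining libraries elsewhere. Grey dashes give the share of all regions with a peak in that library, and untreated wild type is highest in each round of both panels.

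The difference was smaller in a further reading that used libraries of similar depth and other choosing libraries. In a reading added after seeing the data, 8 libraries chose 4433 regions by the rule of 2 of 2 libraries. The libraries read, 1 per condition, had 3080104, 2851627, 3000220 and 2307377 fragments. Only the reading was near in depth, and the choice changed with it, so the smaller difference cannot be assigned to reading depth. The choice used replicates 2 and 3 of untreated wild type (4188012 and 6119057 fragments) and replicates 1 and 2 of each other condition (834029 to 1832197). A peak was present in 58.2% of these regions in untreated wild type (95% Wilson interval 56.7 to 59.6%), 53.8% in TRα (-/-) with T3 (52.4 to 55.3%), 45.4% in TRα (-/-) without T3 (44.0 to 46.9%) and 55.9% in wild type with T3 (54.4 to 57.3%). Of all regions, 15.1%, 13.2%, 10.7% and 20.8% had a peak in these libraries, in the same order. For the 895 regions with no peak in the other 6 choosing libraries, the shares were 37.7%, 28.9%, 26.3% and 36.8%. Their 95% Wilson intervals were 34.5 to 40.9%, 26.1 to 32.0%, 23.5 to 29.2% and 33.7 to 40.0% in the same order. These intervals cover counting error only, and with 1 library per condition the differences had no replicate check. The same regions were read in each library, and the libraries differed in their share of all regions. The intervals therefore do not compare the conditions.

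Every condition had regions bound in it alone. Against the 3622 of untreated wild type, 2054 regions (1.09% of all regions) were bound only in TRα (-/-) with T3, 584 (0.309%) only in TRα (-/-) without T3 and 2744 (1.45%) only in wild type with T3. As a share of the regions bound in each condition these were 22.8%, 16.6%, 7.80% and 20.3%. Of these, 22.2% had a peak in all 3 libraries in untreated wild type, against 8.47%, 3.25% and 8.05%. The order of the counts changed with the setting. When each library kept only its best 4645 peaks by q value, 665 regions were bound only in untreated wild type, against 468 in TRα (-/-) with T3, 577 in TRα (-/-) without T3 and 406 in wild type with T3. When a peak in 1 library was sufficient, untreated wild type had 24731, fewer than TRα (-/-) with T3 (48563) and wild type with T3 (68644). With no peak allowed in any other library, the counts were 806 in untreated wild type, against 788, 137 and 1151 in the same order of conditions. With peaks closer than 500 bp merged, they were 3590, against 2738, 630 and 4271. When a condition lost 1 of its own libraries and needed a peak in both remaining ones, untreated wild type had 1867 regions without replicate 1, 1862 without replicate 2 and 1525 without replicate 3. The same step left 868, 793 and 738 in TRα (-/-) with T3, 97, 477 and 48 in TRα (-/-) without T3, and 1129, 1146 and 898 in wild type with T3. With the same replicate number left out of all conditions, untreated wild type had 3174, 3309 and 3686, against 131 to 1817 in the others. Among peaks with q under 0.001, untreated wild type had 3408, against 888, 369 and 857 in the same order. A fixed cutoff on q or on pileup does not make libraries of unlike depth equal, so these counts are not free of depth.

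The rule also returned regions when the replicates were moved out of register. With replicates 1, 2 and 3 of every condition placed 1 Mb apart along the chromosomes, so that peaks of different replicates no longer met at the same position, 1355 regions were bound only in untreated wild type, 37.4% of the observed number. Offsets of 100 kb and 5 Mb gave 1449 and 1303. The whole set of untreated wild type fell to 2964 regions, 18.7% of the observed number. Same-numbered libraries of the conditions stayed in register with each other. With the 3 libraries of untreated wild type kept in register and moved together by 1 Mb against the other 9, a shift added after seeing the data, 14820 of 15817 regions (93.7%) were bound only in untreated wild type, against 22.8% as observed. These counts set a scale and are not a test.

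**Figure D4:**
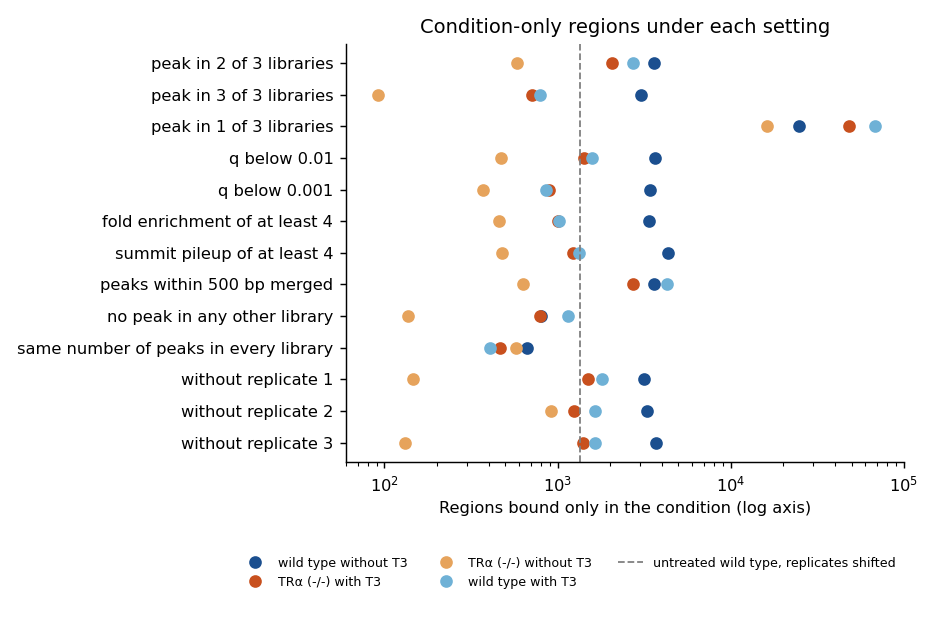
Number of regions bound only in each condition (log axis) under 13 settings, 1 point per condition. Settings with a fixed cutoff on q or pileup do not make depth equal. The dashed line marks the 1355 regions of untreated wild type left after shifting replicates by 1 Mb at the setting of the top row; untreated wild type is highest in 10 of the 13 settings and below wild type with T3 with 1 of 3 libraries (24731 against 68644), 500 bp merging (3590 against 4271) and no peak in any other library (806 against 1151).

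The regions farthest from both limits of the rule had a peak in all 3 libraries of untreated wild type and in none of the other 9. There were 97 of them (0.0513% of all regions), against 22 (0.0116%) counted the same way for TRα (-/-) with T3, 0 for TRα (-/-) without T3 and 37 (0.0196%) for wild type with T3. The count of 0 needed peaks in replicate 2 of TRα (-/-) without T3, which had 4645 peaks in all. Without 1 library to meet the rule, the 97 became 348, 351 and 320 (without replicate 1, 2 or 3 of untreated wild type) and 164 (without replicate 3 of wild type with T3). With replicates shifted by 1 Mb there were 2. Their summit pileups were modest, with medians of 6, 7 and 9 fragments in replicates 1, 2 and 3 and highest values of 25, 34 and 56. In 15 of the 97 the scaled pileup reached the median of at least 2 libraries in every other condition. No count model or test was applied to them, since both the presence and the absence of peaks chose them.

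The best-ranked of these 97 regions by q value are given with their positions in the v9.1 genome, since they lie farthest inside the rule. Region 1 was chr2:24818945-24819150, where 25, 30 and 56 fragments were stacked in replicates 1, 2 and 3 of untreated wild type at 14.0-, 15.0- and 19.7-fold enrichment. The scaled pileup at this region was 6.77 fragments in the shallowest other library and 24.4 in the deepest, both above the lowest pileup called in those lists (3 and 4 fragments), and no peak was called in any of the 9. The nearest peak of another condition was 6621 bp away and the nearest region bound elsewhere 113973 bp away. Region 2 was chr3:5353672-5353995, with 19, 28 and 34 fragments, and scaled pileups of 5.14 to 18.5 fragments where no peak was called. Neither had a peak of another condition within 4 kb.

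Region 3, chr2:81772495-81772989, had 24, 20 and 31 fragments, but a region bound in another condition lay 479 bp away. Region 4 was chr1:182054746-182054945 with 15, 17 and 15 fragments, and region 5 was chr2:124876569-124876833 with 9, 16 and 31. Region 6 was chr3:16854974-16855357 with 10, 16 and 21 fragments. Region 7, chr2:169175943-169176255, had 12, 32 and 22 fragments and lay 1363 bp from a region bound elsewhere. Region 8, chr2:18819161-18819394, had 8, 13 and 13 fragments, and its scaled pileup in the shallowest library was 2.17 fragments, below the 3 that is the lowest in that list. From region 4 on, the scaled pileups in the shallowest library were at or under 3.39 fragments, against a lowest called pileup of 3 in that list. In the deepest other library they were 7.79 to 12.2 fragments, above the lowest called pileup of 4, and no peak was called.

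The 4 best of all 3622 regions by q value were region 1 and regions 9 to 11, and the last 3 had peaks elsewhere, in at most 1 library of a condition. Region 9 was chr3:131794174-131794350, a window of 177 bp in which 914, 1127 and 1218 fragments were stacked in replicates 1, 2 and 3 of untreated wild type. It also had 372 fragments in replicate 1 of wild type with T3, whose per-million pileup of 352 was above the 297, 269 and 199 of untreated wild type. No peak was called in replicates 2 and 3 of wild type with T3, where 491 and 621 fragments were the scaled values, or in any TRα (-/-) library, where they were 224 to 807. The edges of the 4 peaks agreed to within 1 bp. Technical replicates of wild type with T3 thus differed in whether this position was listed.

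Region 10, chr7:10496285-10496469, also differed between replicates. It had 102 and 166 fragments in replicates 1 and 2 of untreated wild type and no peak in replicate 3, the deepest of all libraries, while replicate 1 of TRα (-/-) without T3 had 51 fragments and replicate 1 of wild type with T3 had 61. Region 11, chr3:104924177-104924364, had 21, 29 and 57 fragments in untreated wild type and 7 in replicate 1 of wild type with T3. The strongest region just outside the rule, chr1:71652848-71653056, had 219, 328 and 256 fragments in untreated wild type. It was bound in TRα (-/-) without T3 through replicates 2 and 3 (24 and 53 fragments), with a peak also in replicate 1 of TRα (-/-) with T3 (49 fragments) and replicate 2 of wild type with T3 (43 fragments). At these narrow and tall peaks, presence varied between technical replicates, and what set it was not tested. Peaks of untreated wild type were 177 bp wide in region 9 and 164 and 178 bp in region 10. In region 11 they were 175 to 188 bp wide. These widths were close to the typical fragment sizes of 152, 176 and 174 bp in replicates 1, 2 and 3. Whether repeated reads at single positions made up these stacks was not tested.

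**Figure D5:**
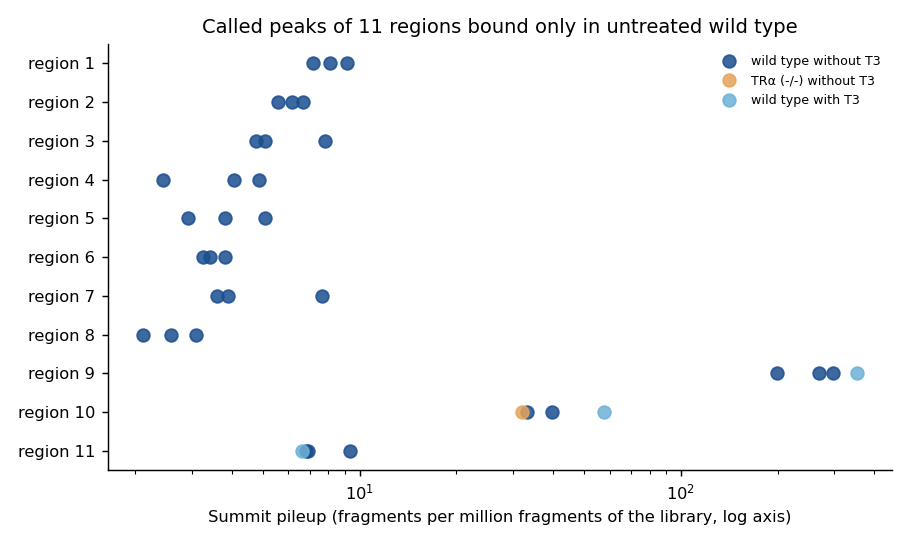
Summit pileup of each called peak (per-million scale, by the fragments of the library, log axis) in 11 regions bound only in wild type without T3, 1 point per library with a peak, coloured by condition. Regions 1 to 8 have points of untreated wild type alone, between 2.12 and 9.15 on this scale, while regions 9 to 11 also have points of other conditions within or near the range of untreated wild type.

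The regions had narrower peaks than shared regions. Their median peak width in untreated wild type was 305, 328 and 346 bp in replicates 1, 2 and 3, against 553, 575 and 635 bp for shared regions. Within the strongest decile by pileup, the 29 regions bound only in untreated wild type had a median peak width of 273.5 bp, and 12 of them (41.4%) were no wider than 250 bp. The 1557 other regions of that decile had a median width of 785 bp, and 3.21% were no wider than 250 bp. In the 5th decile the medians were 377.5 and 561 bp. Width is not independent of the rule, because a wide peak offers more bases for a peak of another library to overlap.

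The 29 regions of the strongest decile had low fold enrichment for their pileup. Their median fold enrichment was 3.62, against 14.5 for the other 1557, and 19 of the 29 lay below 5-fold, against 111 of the 1557. Their pileups thus stood mostly on a high local background. Of the 29, 8 had a peak in none of the other 9 libraries, 13 in 1, 6 in 2 and 2 in 3. Regions 1, 2, 9, 10 and 11 were among the 10 of the 29 with enrichment of 5-fold or more. The median peak widths of these 10 in untreated wild type ran from 171 to 282 bp. Its typical fragment sizes were 152 to 176 bp, so high enrichment went with peaks little wider than a fragment in most of them. What made these peaks narrow was not tested.

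The summits in replicates 1 and 2 of untreated wild type lay a median of 113 bp apart in the 3622 regions, against 111 bp in the 2600 regions just outside the rule and 93 bp in shared regions. For replicates 2 and 3 the medians were 99, 113 and 85 bp. In 3521 of the 3622 regions (97.2%) the peaks of untreated wild type overlapped each other, and in 101 they were joined only through a peak of another library.

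Shifted peaks of the other conditions were looked for beside the regions. A peak of another condition that did not overlap lay within 500 bp of 611 of the 3622 regions (16.9%), against 1406 of 12231 shared regions (11.5%), and a region bound in another condition lay within 500 bp of 166 (4.58%), against 4.28% of shared regions. When peaks closer than 500 bp were merged, 3590 regions were bound only in untreated wild type. This is a net count, since merging also forms regions that meet the rule. The same step took TRα (-/-) with T3 from 2054 to 2738 and wild type with T3 from 2744 to 4271. How many of the original 3622 remained was not counted. The nearest region bound in another condition was a median of 10024.5 bp away for the 3622 regions and 8577 bp for shared regions. For the nearest peak of another condition the order was reversed, with medians of 1765.5 and 2452 bp.

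The regions were spread over all 10 chromosomes. As a share of the regions bound in untreated wild type they ranged from 21.1% on chromosome 8 (95% Wilson interval 19.1 to 23.2%) to 24.5% on chromosome 4 (22.3 to 26.9%), and these 2 intervals overlapped. Per Mb there were 2.33 on chromosome 1 and 6.38 on chromosome 10, which had the fewest and the most regions bound in untreated wild type per Mb as well (10.1 and 27.9). Within 5 Mb of the outermost peaks of a chromosome lay 28.2% of the 3622 regions, against 36.3% of shared regions and 10.9% of all regions.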

How the data were processed

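ChIP-seq peak lists of 12 libraries were used, 3 technical replicates for each of 4 conditions, grouped by the sample labels. The authors aligned reads to Xenbase v9.1 with Bowtie2 2.3.4.1, dropped redundant reads, and ran MACS2 2.1.1.20160309 on every library, with no control sample, at a q value cutoff of 0.05, with a local background of 10 kb, per the file headers and the study's methods. The deposited values are position and width in bp, summit pileup (a signal, the fragments stacked there, left unscaled), fold enrichment (a ratio to the background nearby), and the −log10 of p-value and q-value. Depth is the number of fragments after filtering in the headers. A deeper library asks for more fragments per peak and detects weaker binding, so a missing peak means no detection by that library.

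Merging, counting and exact permutation tests used Python 3.11.15, numpy 2.4.6, pandas 2.3.3 and scipy 1.17.1, and were tested on simulated lists. The region set, lists and settings were chosen with earlier results of these data known. Named regions are the 8 best by mean q value percentile with peaks in all 3 and none of the 9 other libraries, the 4 best of all (1 of them region 1) and the best just outside the rule. Replicate numbers were taken to pair libraries, since deviations in fragments of same-numbered libraries correlated between every pair of conditions (lowest 0.531, mean 0.814, over 3 replicate numbers).

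The alternatives were stricter q values, merging within 500 bp, 50% coverage of a region, fold enrichment or pileup of at least 4, equal numbers of peaks, other numbers of libraries, libraries left out, and the replicate block. Genes, hormone response elements and sequence were not analysed here.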

Additional observations from a re-analysis of the deposited data

How the results depend on the processing

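The 3622 regions bound only in untreated wild type were 3036 to 4327 with stricter q values, fold enrichment or pileup of at least 4, merging within 500 bp, 50% coverage or 3 of 3 libraries. Fixed cutoffs on q or pileup do not make depth equal. A pileup of at least 4 removed no peak of replicates 2 and 3 of untreated wild type (lowest pileup 4 and 5). Most other lists began at 2 or 3. They were 665 with equal numbers of peaks per library, 24731 with 1 of 3 libraries sufficient and 806 with no peak allowed in any other library. With libraries left out they lay between 1525 and 4636, lowest without a library of untreated wild type (1525 to 1867) and highest without a library of another condition (3686 to 4636). Either step moves the count one way by construction. With 1 replicate number left out in all conditions they were 3174 to 3686. The 97 regions with a peak in all 3 libraries and no other were 22 with equal numbers of peaks and 94 to 137 under the other settings. They were between 99 and 750 with libraries left out, where fewer libraries have to lack a peak or carry one.

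The share of 22.8% was 25.0% at q below 0.01, 28.8% at q below 0.001, 33.7% with 50% coverage, 27.0% with fold enrichment and 27.9% with pileup of at least 4. It was 15.6% with equal numbers of peaks, 50.1% with 1 library sufficient, 32.0% with all 3 required and 5.08% with no peak allowed elsewhere, and between 14.0 and 34.0% with libraries left out. Regions whose scaled pileup reached the median of the other lists were 391, against 1063 with the lowest pileup and 623 with scaling by regions common to all libraries. With both changes they were 1588, a setting added after seeing the data. Regions with a peak of another condition nearby were 611 within 500 bp, 254 within 200 bp and 1182 within 1000 bp. The 1355 regions after shifting replicates became 14820 when untreated wild type was moved as a whole. The difference in depth of 2657427 fragments had p = 0.25 with the replicate block (exact sign-flip test), and was 1829094 to 3348571 fragments with a library of untreated wild type left out.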

Other observations

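The regions bound only in untreated wild type were spread thinly, with a few denser places. Of 2115 windows of 500 kb with TR binding in untreated wild type, 1467 held at least 1 such region and 13 held 10 or more. The highest numbers were 13 of 54 bound regions on chromosome 2 (168500001 to 169000000) and 13 of 49 on chromosome 5 (2000001 to 2500000), which are shares near the 22.8% found over the genome. The window of chromosome 10 from 15000001 to 15500000 was different, with 12 of 25 (48.0%), of which 5 belonged to the strongest decile by pileup. Their median fold enrichment was 4.03, and 11 of the 12 lay below 5-fold, against 6.28 and 2 of 13 for the other regions bound in untreated wild type in that window. This window was singled out after its values were seen.

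In the single libraries of similar depth, 52.0% of the regions of untreated wild type replicate 1 had no peak in the 3 libraries of the other conditions, against 46.0% for replicate 3 of TRα (-/-) with T3, 41.7% for replicate 3 of TRα (-/-) without T3 and 64.6% for replicate 3 of wild type with T3, each counted against the other 3. Of those regions, 9.57%, 9.40%, 4.93% and 6.02% had a peak in another library of the same condition. Those other libraries were not of similar depth. They held 4188012 and 6119057 fragments in untreated wild type and 834029 to 1832197 in the other conditions. These last shares therefore do not compare the conditions at similar depth. The comparison of single libraries was added after seeing the data.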
